A study of Mus musculus with 8 samples.

Results

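The ADAMTS proteases are secreted enzymes with a zinc-dependent catalytic domain and one or more thrombospondin type repeats, and they cut proteins of the extracellular matrix. Several of them are known as aggrecanases or versicanases because they cut the large proteoglycans that fill the matrix of cartilage and of the arterial wall. Others trim procollagens before fibres assemble, or cut cartilage oligomeric matrix protein, which arterial smooth muscle also makes. The transcripts of 10 such genes were followed here in whole mouse aorta: Adamts1, Adamts4, Adamts5, Adamts8, Adamts9 and Adamts15 (proteoglycanases), Adamts2 (a procollagen N-proteinase), Adamts7 and Adamts12 (proteases that cut cartilage oligomeric matrix protein and carry a mucin-like domain) and Adamts17 (associated with fibrillin). They were taken by symbol from the 24411 rows of the count table, and all 10 were found there. The list was made with earlier results of these data known. The comparison asked which of them differed in level after the endothelium of arteries had been given an active inflammatory kinase.

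The study compared 5 aortas of caIKK2EC mice with 3 aortas of Control littermates, each sequenced as 1 library. All mice were ApoE-/-, a background that develops atherosclerosis, and all carried caIKK2(+/+), a constitutively active IKK2 with EGFP behind a STOP cassette flanked by loxP sites. IKK2 is the kinase that releases NF-κB from its inhibitor. The caIKK2EC mice also carried BMX-CreERT2(+/-), a tamoxifen-inducible Cre recombinase of arterial endothelium, and Controls lacked Cre. Both groups received tamoxifen on 5 consecutive days (1 mg per 20 g mouse) and a Western-type diet for 12 weeks. The series describes activation at early or late stages of the disease, but the labels do not say which applies to these 8 libraries. Cre acts in the endothelium, whereas the RNA came from the whole vessel, so a difference can lie in any of its cells. In such bulk samples fewer cells of a type and less RNA per cell cannot be told apart.

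Total counts ran from 23461655 to 30808502 per library. The mice were 18 or 19 weeks old and female, except Control 3, which was the only male and the only 19-week Control. After a shared prefix, the deposited column names carry the digit 7 for the 3 Controls and caIKK2EC 1 and the digit 8 for caIKK2EC 2 to 5. These digits are read here as sequencing lanes, which neither the labels nor the column names state. The within-lane comparison thus rests on 1 caIKK2EC library. Defining markers of smooth muscle, endothelium, fibroblasts and macrophages were found in every library. Summed smooth muscle markers ranged from 18330 to 36540 CPM (counts per 1000000, scaled by TMM library size factors) in Controls and from 10060 to 20860 CPM in caIKK2EC. Summed macrophage markers ranged from 1431 to 2530 CPM in Controls and from 3467 to 4109 CPM in caIKK2EC. Control 1 and caIKK2EC 1 stood apart in striated muscle markers, at 1536 and 805.5 CPM, against 44.41 to 79.26 CPM in the other 6 libraries. Summed adipocyte markers were 5142 CPM in caIKK2EC 1, the library of the within-lane comparison, against 583.4 to 2938 CPM in the other libraries.

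What the 10 proteins share is the catalytic site, in which 3 histidines hold the zinc ion. The coding DNA of that site was read from the GENCODE M21 transcripts (build GRCm38), and each of the 10 genes held it once, as 33 bases. It is shown for Adamts4, Adamts7 and Adamts8, whose groups did not overlap, for the neighbours or relatives they are set beside in the text (Adamts15, Adamts5 and Adamts12) and for Adamts1, the most abundant, 5′ to 3′ on the coding strand, with the 3 histidine codons in capitals.
Adamts4: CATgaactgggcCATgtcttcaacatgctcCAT
Adamts15: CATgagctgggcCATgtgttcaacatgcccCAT
Adamts8: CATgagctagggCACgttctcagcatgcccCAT
Adamts1: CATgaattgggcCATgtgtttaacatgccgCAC
Adamts5: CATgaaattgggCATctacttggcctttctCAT
Adamts7: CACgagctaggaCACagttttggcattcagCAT
Adamts12: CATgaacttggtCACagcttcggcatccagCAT
Over all 10 genes, 12 of the 33 positions held the same base. Adamts4 and Adamts15 were the closest pair, with 30 of 33 bases alike (90.9%). Adamts4 and Adamts8, whose levels differed from Control in opposite directions, shared 25 (75.8%), and Adamts4 and Adamts5 shared 19 (57.6%). Adamts7 and Adamts12 shared 26 (78.8%).

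The site was split by an exon junction in all 10 genes, and the junction fell at either of 2 places. In Adamts1, Adamts4, Adamts5, Adamts8 and Adamts15 the first 10 bases lay in one exon and the other 23 in the next. In Adamts2, Adamts7, Adamts9, Adamts12 and Adamts17 the split was 17 and 16 bases. Adamts9 is thus the only one of the 6 proteoglycanases here with the junction of the other class. On GRCm38 the Adamts4 site lies on the plus strand in exon 3 (chr1:171253210-171253219) and exon 4 (chr1:171253893-171253915). The Adamts8 site lies on the plus strand in exon 3 (chr9:30952721-30952730) and exon 4 (chr9:30953356-30953378). The Adamts7 site lies on the plus strand in exon 7 (chr9:90179456-90179472) and exon 8 (chr9:90180625-90180640).

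The levels of the 10 genes spanned a wide range. Per kilobase of merged exon, the mean over the 8 libraries was 45.3 CPM per kb for Adamts1 and 38.5 for Adamts2. Adamts8 (9.72 CPM per kb), Adamts5 (6.93), Adamts15 (5.65), Adamts4 (3.33), Adamts7 (2.74) and Adamts9 (1.59) formed a middle tier. Adamts12 (0.571 CPM per kb) and Adamts17 (0.0540) were lowest. The level of Adamts2 exceeded that of Adamts8 in 8 of 8 libraries with no overlap of their ranges, and the same held for Adamts9 over Adamts12 and for Adamts12 over Adamts17. Other neighbours in the order overlapped in range: Adamts1 exceeded Adamts2 in 6 of 8 libraries, Adamts8 exceeded Adamts5 in 5, Adamts5 exceeded Adamts15 in 6, Adamts15 exceeded Adamts4 in 7, and Adamts4 exceeded Adamts7 in 4. Adamts7 was above Adamts9 within each of the 8 libraries although the ranges over libraries overlapped. Summed over the 10 genes, the level was 117 ± 30.9 CPM per kb in Controls (SD, n = 3) and 113 ± 14.3 in caIKK2EC (SD, n = 5).

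**Figure D1:**
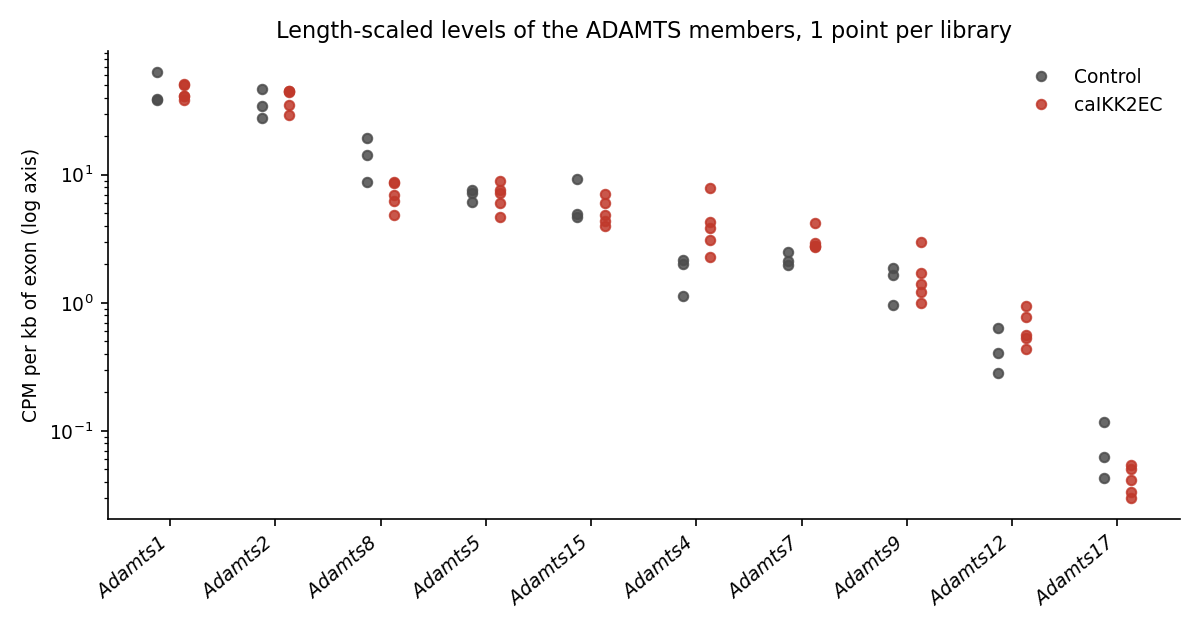
Length-scaled level of each ADAMTS gene, in CPM per kilobase of exon on a log axis, with 1 point for each of 3 Control (grey) and 5 caIKK2EC (red) libraries, ordered by the mean over all 8. Adamts1 and Adamts2 lie highest and Adamts17 lowest, and the groups separate for Adamts8, Adamts4 and Adamts7 only, by a narrow margin for Adamts8.

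In the comparison of caIKK2EC with Control, Adamts4 was higher, Adamts8 was lower, Adamts7 was slightly higher, and the other 7 genes overlapped between the groups. By edgeR's quasi-likelihood test with Benjamini-Hochberg adjustment over 14679 genes, 0 of the 10 passed an adjusted p of 0.05, as did 0 of all genes (0% called). At an unadjusted p under 0.05 the same test had 2 of 10 higher, where 9.66% of all genes were higher, and 1 of 10 lower, where 7.47% of all genes were lower. DESeq2, the alternative count model and the tool named by the submitters, called Adamts4 higher (4.55% of all genes were called higher) and Adamts8 lower (1.51% called lower). The libraries of the groups did not overlap, with caIKK2EC higher, for Adamts4 and Adamts7 (7.01% of all genes) and, with caIKK2EC lower, for Adamts8 (3.22% of all genes). These few members in each direction are too few to set their share apart from the background. The median log2 fold change was 0.06 over the 10 genes, with 5 positive and 5 negative, and -0.02 over all genes tested.

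**Figure D2:**
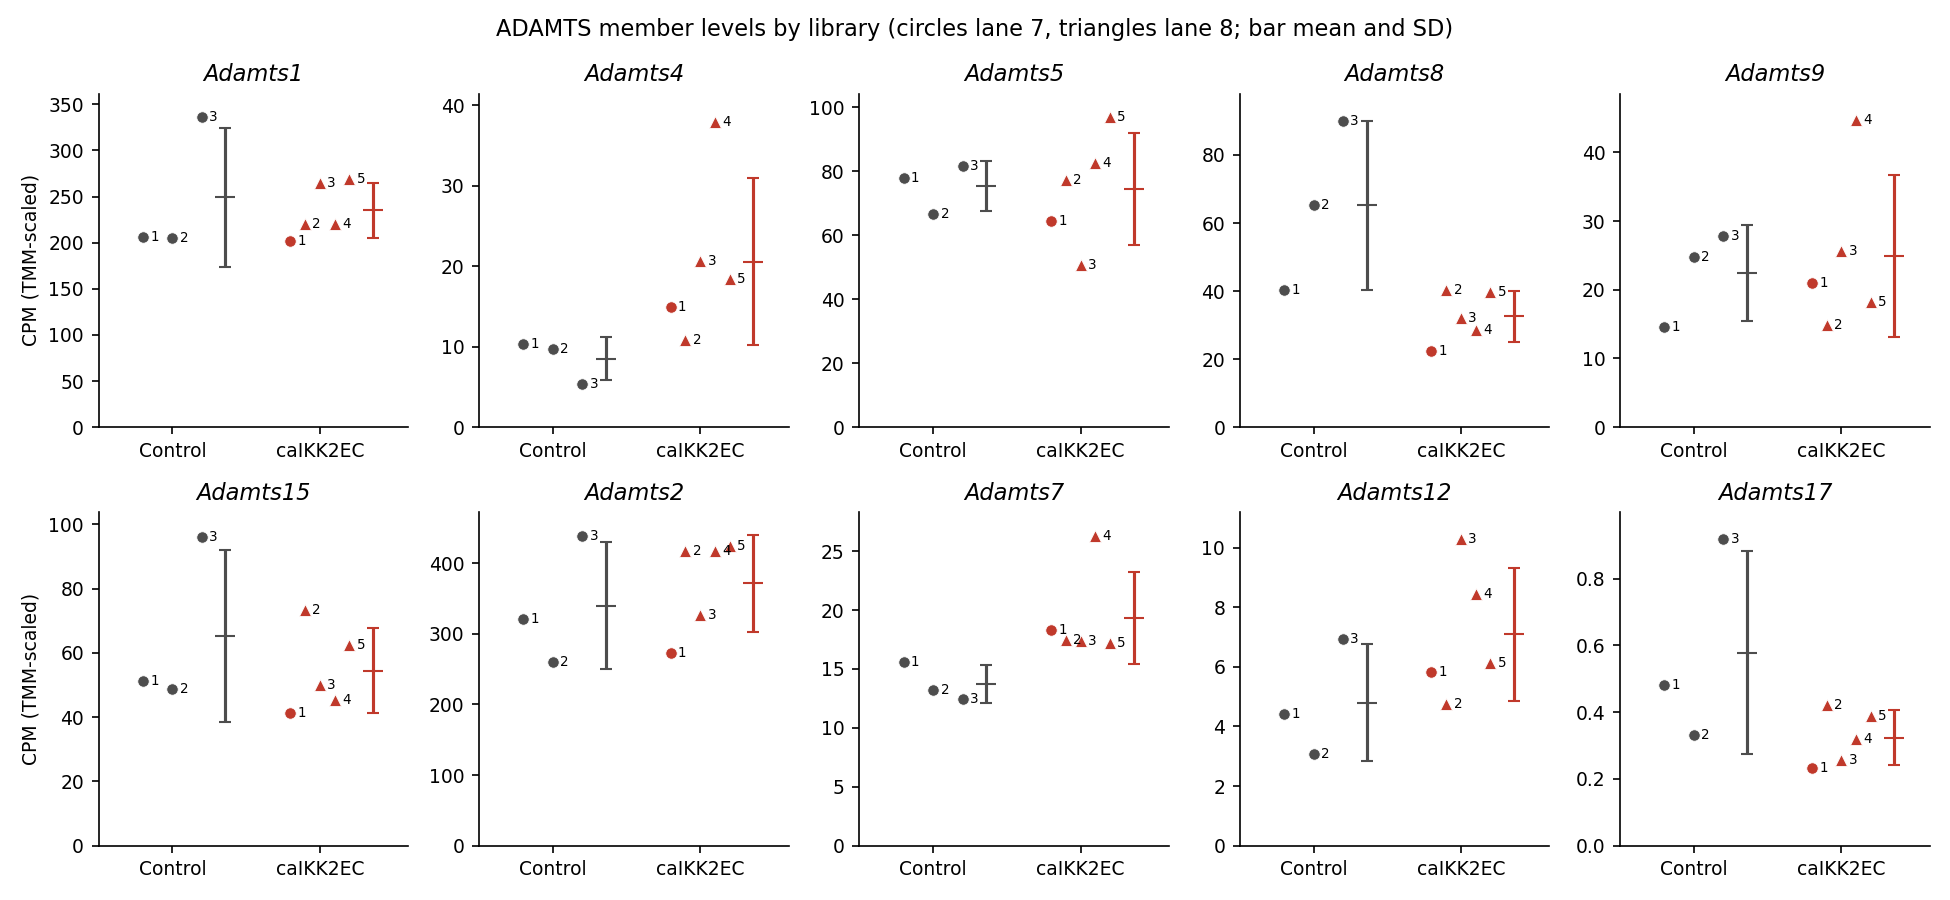
Level of each ADAMTS gene in TMM-scaled CPM, on an axis of its own per gene, with 1 numbered point for each of 3 Control (grey) and 5 caIKK2EC (red) libraries, circles for lane 7, triangles for lane 8, and bars for the mean and SD. All 5 caIKK2EC points lie above the Controls for Adamts4 (10.87 to 37.84 against 5.41 to 10.37) and Adamts7, and below them for Adamts8 by a margin of 40.28 against 40.30.

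Adamts4 (chr1:171250421-171260637, plus strand) encodes the aggrecanase best known as an inflammation-responsive enzyme of cartilage, and it also cuts versican and brevican. Its level was 10.4, 9.69 and 5.41 CPM in Controls 1 to 3, from 280, 262 and 118 counts. In caIKK2EC 1 to 5 it was 14.96, 10.9, 20.6, 37.8 and 18.4 CPM, from 385, 258, 483, 1063 and 569 counts. All 5 caIKK2EC libraries were above the highest Control, caIKK2EC 2 by little, and caIKK2EC 4 was the highest. The means were 8.49 ± 2.69 CPM (SD, n = 3) and 20.5 ± 10.4 CPM (SD, n = 5).

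The fitted difference for Adamts4 was 2.42-fold higher in caIKK2EC, with a 95% interval from 1.32 to 4.42. On the log2 scale it was 1.27 (SE 0.39), with an edgeR adjusted p of 0.161, and the DESeq2 adjusted p was 0.0200. The exact two-sided permutation test on log2(CPM + 0.5) gave p = 0.0357, which is the smallest that 56 splits of 3 against 5 libraries allow. This p is not adjusted, and every gene whose groups do not overlap gets it. Such genes were 7.01% of all genes with caIKK2EC higher and 3.22% with caIKK2EC lower. For the members whose groups overlapped, the same test gave p from 0.143 (Adamts17) to 0.893 (Adamts9). Within lane 7, caIKK2EC 1 exceeded the 3 Controls by 0.83 on the log2 scale. The DESeq2 call was lost with sex in the model (log2 fold change 1.04, DESeq2 adjusted p = 0.164), with lane (0.82, 0.552), without Control 3 (1.04, 0.155) and without caIKK2EC 4 (0.93, 0.0635). It was also lost, with the fold change little moved, without caIKK2EC 3 (1.27, DESeq2 adjusted p = 0.0616) and without caIKK2EC 5 (1.31, 0.0551). The level was lowest in Control 3, which also had the lowest summed macrophage markers, 1431 CPM. In caIKK2EC 1 to 5 the summed macrophage markers were 3935, 3467, 4109, 3598 and 3997 CPM. caIKK2EC 4, highest in Adamts4, was out of order, with 3598 CPM. In the other caIKK2EC libraries Adamts4 rose with the sum, from caIKK2EC 2, lowest in both, to caIKK2EC 3, with the highest sum. All 8 macrophage markers were called higher by DESeq2 in caIKK2EC, beside 4.55% of all genes. Their median log2 fold change was 0.85, and their part in the Adamts4 difference was not tested.

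Adamts8 (chr9:30942562-30963838, plus strand) encodes a proteoglycanase first described as an inhibitor of vessel growth. Its level was 40.30, 65.4 and 89.9 CPM in Controls 1 to 3, from 1088, 1769 and 1960 counts. In caIKK2EC 1 to 5 it was 22.5, 40.28, 31.9, 28.6 and 39.7 CPM, from 580, 956, 748, 804 and 1227 counts. The Controls were widely spread, with Control 3 highest and Control 1 level with caIKK2EC 2 and 5. The means were 65.2 ± 24.8 CPM (SD, n = 3) and 32.6 ± 7.53 CPM (SD, n = 5).

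The fitted level of Adamts8 in caIKK2EC was 0.5004 times that in Controls, with a 95% interval from 0.337 to 0.742. This is a log2 fold change of -0.999 (SE 0.26), with an edgeR adjusted p of 0.129 and a DESeq2 adjusted p of 0.0131. The exact two-sided permutation test gave p = 0.0357, again the smallest possible. With DESeq2 size factors the groups touched, since the lowest Control (1025 normalised counts) fell under the highest caIKK2EC library (1034). Within lane 7 the log2 difference was -1.44. The DESeq2 call was lost with sex in the model (log2 fold change -0.69, DESeq2 adjusted p = 0.175), without Control 3 (-0.69, 0.176), without Control 2 (-1.001, 0.0529) and without caIKK2EC 4 (-0.96, 0.0571). It was kept with lane in the model (-1.53). Control 3 had the highest summed smooth muscle markers (36540 CPM) and caIKK2EC 1 the lowest (10060 CPM), and these libraries also held the highest and the lowest level of Adamts8. All 8 smooth muscle markers had negative fold changes, with a median log2 fold change of -0.66. DESeq2 called 1 of 8 lower, beside 1.51% of all genes. The part of these markers in the Adamts8 difference was not tested. An antisense gene that shares 489 bases of exon with Adamts8 is not analysed here.

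Adamts15 lies next to Adamts8, head to head. Its gene (chr9:30899155-30922452, minus strand) starts 20110 bases from the start of Adamts8, with no other coding gene between them, and it encodes a versicanase. The level of Adamts15 was 51.1, 48.7 and 96.0 CPM in Controls and 41.2, 73.5, 49.9, 45.2 and 62.6 CPM in caIKK2EC 1 to 5. Control 3 was highest, as for Adamts8, and the groups overlapped. The log2 fold change was -0.26 (SE 0.26, 95% interval -0.83 to 0.31), with an edgeR adjusted p of 0.649.

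The ratio of these neighbours does not depend on library scaling. Per kilobase, the ratio of Adamts15 to Adamts8 was 0.565, 0.331 and 0.475 in Controls and 0.814, 0.812, 0.695, 0.703 and 0.702 in caIKK2EC. The groups did not overlap, at 0.457 ± 0.118 (SD, n = 3) and 0.745 ± 0.0620 (SD, n = 5). The ratio of Adamts4 to Adamts8 was 0.247, 0.142 and 0.0577 in Controls and 0.637, 0.259, 0.619, 1.27 and 0.445 in caIKK2EC. In caIKK2EC 4 the level of Adamts4 was above that of Adamts8, and in the other 7 libraries it was below. These ratios were chosen after the levels had been seen and are given with no test. The ratio of Adamts4 to Adamts8 could not overlap between the groups, since each gene already separated them, in opposite directions. The ratio of Adamts15 to Adamts8 has as its denominator Adamts8, which separated the groups in CPM, and is no difference independent of it. How often other pairs of genes separate the groups was not examined.

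**Figure D3:**
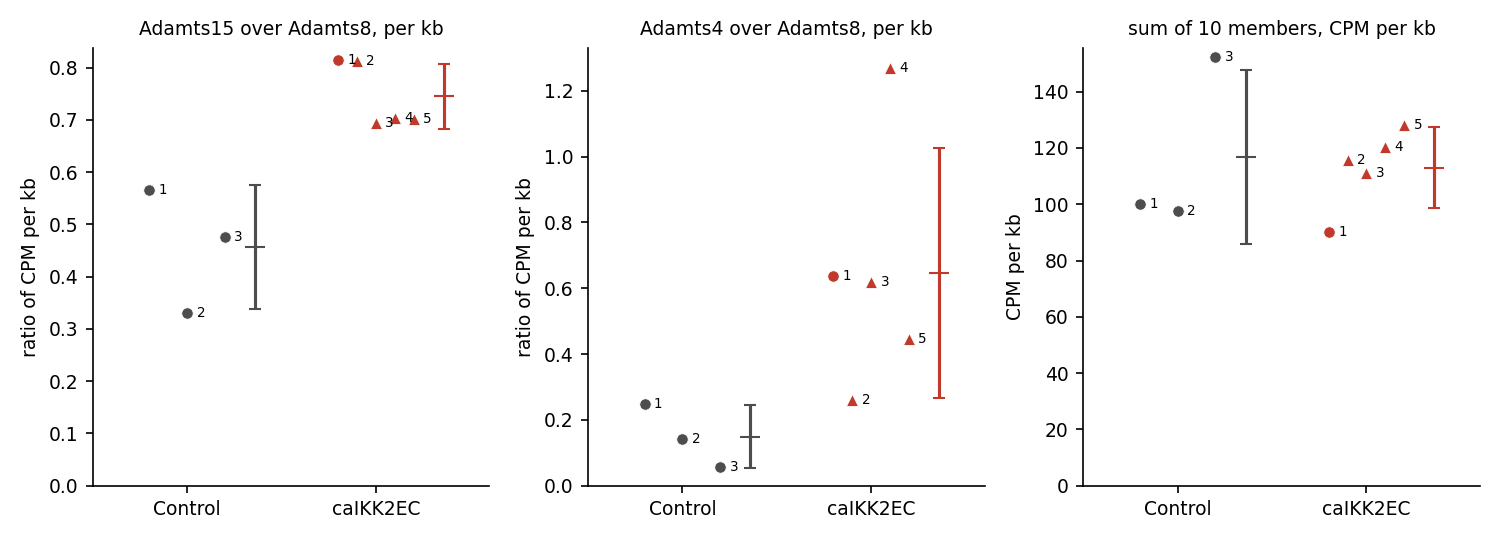
Ratio of Adamts15 to Adamts8, ratio of Adamts4 to Adamts8, and sum of the 10 ADAMTS genes, all from CPM per kilobase, with 1 numbered point per Control (grey) or caIKK2EC (red) library, circles for lane 7, triangles for lane 8, and bars for the mean and SD. The groups do not overlap in either ratio (0.331 to 0.565 against 0.695 to 0.814, and 0.0577 to 0.247 against 0.259 to 1.27), and they overlap in the sum. For Adamts4 to Adamts8 this follows from the separation of each gene. For Adamts15 to Adamts8 the denominator, Adamts8, already separated the groups in CPM, so neither ratio is a difference independent of Adamts8.

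Adamts5 and Adamts1 form another neighbouring pair, on the minus strand of chromosome 16 with 53059 bases and no coding gene between them. Adamts5 (chr16:85856173-85901828) encodes the major aggrecanase of mouse cartilage. Its level was 78.0, 66.6 and 81.5 CPM in Controls and 64.6, 77.2, 50.8, 82.8 and 97.1 CPM in caIKK2EC, so that the caIKK2EC libraries fell on both sides of the Controls. The log2 fold change was -0.02 (95% interval -0.44 to 0.41), with an edgeR adjusted p of 0.978. The ratio of Adamts4 to Adamts5 per kilobase was 0.298, 0.326 and 0.149 in Controls and 0.520, 0.316, 0.911, 1.03 and 0.425 in caIKK2EC, with caIKK2EC 2 inside the Control range.

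Adamts1 (chr16:85793827-85803113), an early-identified member that cuts versican and aggrecan, had the highest level per kilobase. Its CPM was 206, 205 and 336 in Controls and 202, 220, 264, 220 and 269 in caIKK2EC. Control 3 was highest, and the groups overlapped. The log2 fold change was -0.08 (95% interval -0.50 to 0.34), with an edgeR adjusted p of 0.867. It was 0.20 without Control 3.

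Adamts9 (chr6:92772699-92943492, minus strand) encodes a widely made versicanase of development. Its level was 14.6, 24.8 and 27.9 CPM in Controls and 21.0, 14.9, 25.7, 44.7 and 18.2 CPM in caIKK2EC. caIKK2EC 4 was highest, as for Adamts4, and the others lay within the Control range. The log2 fold change was 0.15 (95% interval -0.62 to 0.93), with an edgeR adjusted p of 0.867. Coding genes on the opposite strand, A730049H05Rik and Gm15737, share 1381 and 424 bases of exon with Adamts9 and are not analysed here. Summed per kilobase, the 6 proteoglycanases were at 77.6 ± 21.8 CPM per kb in Controls (SD, n = 3) and 69.5 ± 8.01 in caIKK2EC (SD, n = 5). Of the summed level of all 10 genes, Adamts8 made up 12.0 ± 2.97% in Controls and 6.22 ± 0.972% in caIKK2EC, and Adamts4 made up 1.65 ± 0.792% and 3.76 ± 1.71% (SD, n = 3 and 5). The share of Adamts8 did not overlap between the groups, as its CPM already did not, and the share of Adamts4 did.

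Adamts2 (chr11:50602084-50807573, plus strand), which removes the amino-terminal propeptide of fibrillar procollagens, was at 320.5, 261 and 438 CPM in Controls. In caIKK2EC it was at 272, 417, 327, 418 and 424 CPM, all within the Control range. The log2 fold change was 0.13 (95% interval -0.33 to 0.59), with an edgeR adjusted p of 0.795. With lane in the model it was -0.32.

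Adamts7 (chr9:90163069-90208071, plus strand), a locus linked to coronary artery disease in human genetics, was at 15.6, 13.2 and 12.4 CPM in Controls, from 420, 357 and 271 counts. In caIKK2EC it was at 18.3, 17.5, 17.4, 26.3 and 17.2 CPM, from 471, 415, 407, 738 and 533 counts. All 5 caIKK2EC libraries were above the Controls; 4 lay close together and caIKK2EC 4 stood apart above them. The means were 13.7 ± 1.63 CPM (SD, n = 3) and 19.3 ± 3.90 CPM (SD, n = 5), and the fitted difference was 1.41-fold (95% interval 1.07 to 1.85; log2 fold change 0.49, SE 0.18). The adjusted p was 0.204 by edgeR and 0.107 by DESeq2, and the exact two-sided permutation p was 0.0357. Within lane 7 the log2 difference was 0.41. Tbc1d2b, on the opposite strand, shares 122 bases of exon with Adamts7 and was at 127 ± 46.1 CPM in Controls (SD, n = 3) and 117 ± 16.9 CPM in caIKK2EC (SD, n = 5).

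Adamts12 (chr15:11064790-11349231, plus strand), the closest relative of Adamts7, was at 4.41, 3.07 and 6.93 CPM in Controls and 5.83, 4.76, 10.3, 8.44 and 6.15 CPM in caIKK2EC. The groups overlapped, with 2 of 5 caIKK2EC libraries above the highest Control. The log2 fold change was 0.57 (SE 0.33, 95% interval -0.17 to 1.30), close to that of Adamts7 in size but less precise, with an edgeR adjusted p of 0.413. It was 0.92 without Control 3 and 0.34 without Control 2. Adamts17 (chr7:66839735-67153171, plus strand) gave 13, 9 and 20 counts in Controls and 6, 10, 6, 9 and 12 in caIKK2EC. The fitted log2 fold change was -0.81 (SE 0.49, 95% interval -1.89 to 0.28), with an edgeR adjusted p of 0.428, and DESeq2 gave it no adjusted p. Without Control 3 the log2 fold change was -0.32.

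**Figure D4:**
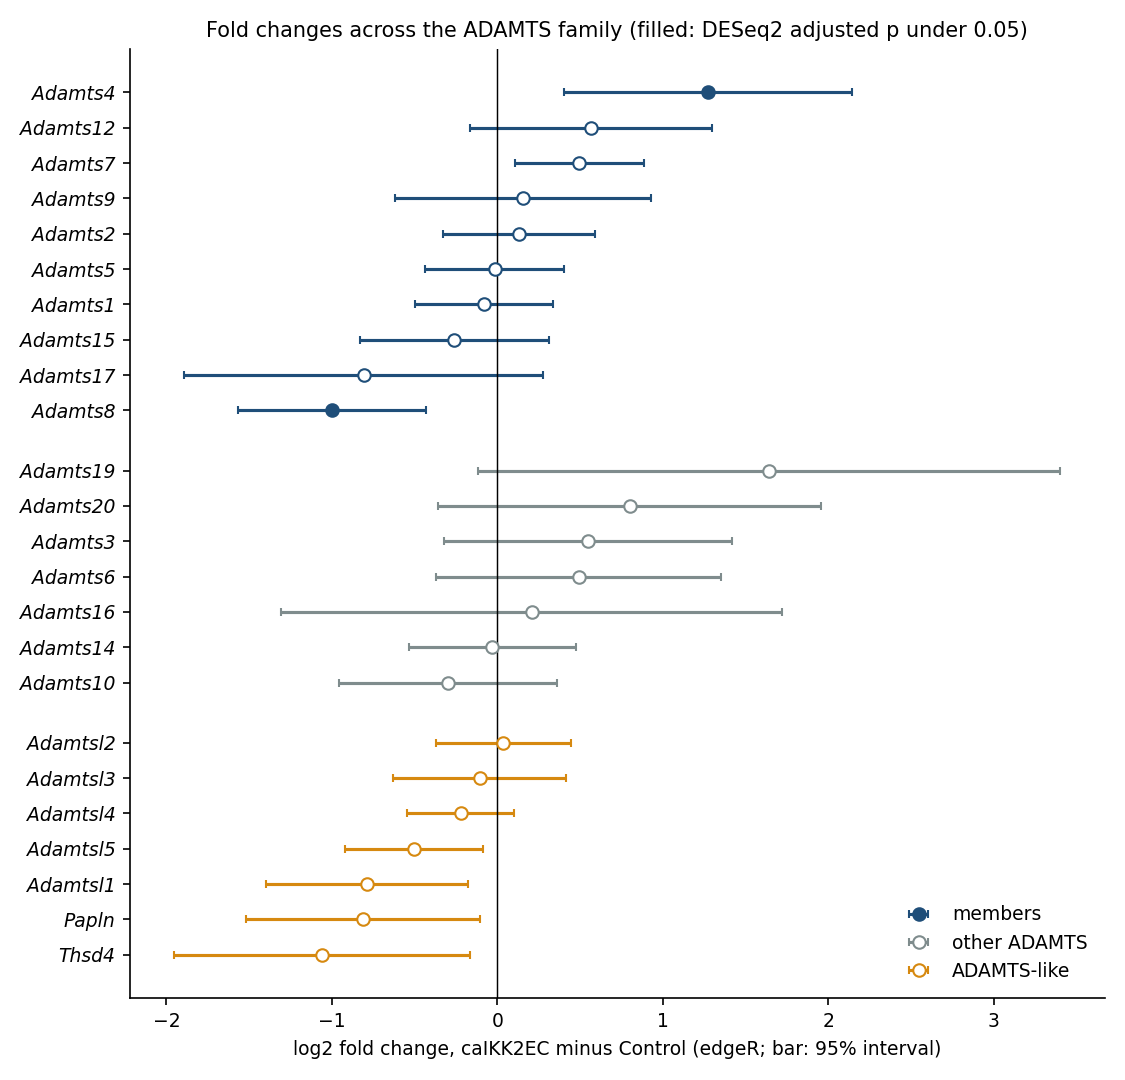
Log2 fold change of caIKK2EC over Control (edgeR, points) with its 95% interval (bars) for the 10 ADAMTS genes (blue), the other 7 ADAMTS genes tested (grey) and the ADAMTS-like genes with papilin (orange); filled points passed an adjusted p of 0.05 by DESeq2. Among the 10 genes the interval excludes 0 for Adamts4 (0.40 to 2.14), Adamts7 (0.10 to 0.88) and Adamts8 (-1.57 to -0.43), and only Adamts4 and Adamts8 are filled.

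The rest of the family was described from a list of 9 other ADAMTS genes, 7 of which had enough counts to be tested. By edgeR 0 of these 7 passed, by DESeq2 0 of the 6 that it gave an adjusted p, 0 had an unadjusted edgeR p under 0.05, and 5 of 7 fold changes were positive (median log2 0.49). Adamts10, a fibrillin-binding member, was the most abundant at 199 ± 63.6 CPM in Controls (SD, n = 3) and 162 ± 61.3 CPM in caIKK2EC (SD, n = 5), a log2 fold change of -0.30 (95% interval -0.96 to 0.36). At 21.3 CPM per kb it lay between Adamts2 and Adamts8. Adamts14, a procollagen N-proteinase like Adamts2, was at 8.57 ± 1.84 and 8.39 ± 1.95 CPM (SD, n = 3 and 5). Adamts13, which cuts von Willebrand factor and is named for that substrate, outside the rule for names, had 0 counts in the Controls and in 3 caIKK2EC libraries, and 7 and 1 in caIKK2EC 1 and 4.

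The ADAMTS-like proteins, papilin included, share the ancillary domains of the family without a protease domain. All 7 were tested and 0 passed by edgeR or DESeq2, and 6 of 7 fold changes were negative (median log2 -0.50), beside 7724 of 14679 genes. At an unadjusted edgeR p under 0.05, 4 of 7 were lower, beside 7.47% of all genes. Thsd4, which promotes fibrillin microfibril assembly, was at 348 ± 248 CPM in Controls (SD, n = 3) and 167 ± 49.0 CPM in caIKK2EC (SD, n = 5), with a log2 fold change of -1.06 (SE 0.40) and an edgeR adjusted p of 0.225. Control 3 alone, at 631.7 CPM, was far above the others. Adamtsl5 was at 175 ± 30.9 and 123 ± 28.1 CPM (SD, n = 3 and 5), a log2 fold change of -0.50 (SE 0.19), with an edgeR adjusted p of 0.215. Summed smooth muscle markers were highest in Control 3 too (36540 CPM), and they overlapped between the groups, with caIKK2EC 2 (20860 CPM) above Control 1 (18330 CPM). Their part in these values was not tested.

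Among 24 substrates of the family, 23 were tested. DESeq2 called 1 of 23 higher and 1 of 23 lower, beside 4.55% and 1.51% of all genes, edgeR called 0, and the median log2 fold change was 0.20. Vwf, made by endothelium and cut by Adamts13, was at 716 ± 221 CPM in Controls (SD, n = 3) and 1080 ± 113 CPM in caIKK2EC (SD, n = 5), with a log2 fold change of 0.59 and adjusted p-values of 0.191 by edgeR and 0.0488 by DESeq2. Summed endothelial markers ranged from 1509 to 2970 CPM in Controls and from 2481 to 3149 CPM in caIKK2EC, but Vwf is itself part of that sum. The other endothelial markers had edgeR log2 fold changes from -0.14 (Erg) to 0.51 (Emcn), and DESeq2 called none of them. Their part in the Vwf value was not tested. Ncan, a proteoglycan best known from brain, gave 31, 24 and 49 counts in Controls and 7, 9, 6, 5 and 17 in caIKK2EC. Its log2 fold change was -2.09 (SE 0.48), with adjusted p-values of 0.109 by edgeR and 0.00746 by DESeq2. Versican and aggrecan, the arterial substrates of the proteoglycanases, did not pass. Vcan was at 107 ± 21.8 and 141 ± 39.8 CPM (SD, n = 3 and 5), with a log2 fold change of 0.39 (95% interval -0.14 to 0.92). Acan was at 47.8 ± 16.8 and 63.8 ± 21.6 CPM (SD, n = 3 and 5), with a log2 fold change of 0.42. Both were chosen as the substrates of the members described above, outside the rule for names.

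Of 16 regulators of the proteases, 0 passed by edgeR or DESeq2. At an unadjusted edgeR p under 0.05, 4 of 16 were higher and 1 of 16 lower, beside 9.66% and 7.47% of all genes. Lrp1, the receptor that clears Adamts4 and Adamts5 from the cell surface, was at 1881 ± 563 and 2000 ± 180 CPM (SD, n = 3 and 5). Timp3, the main tissue inhibitor of Adamts4 and Adamts5 and named for that role, outside the rule for names, was at 1641 ± 322 and 1378 ± 264 CPM (SD, n = 3 and 5), a log2 fold change of -0.25 (SE 0.20) with an edgeR adjusted p of 0.562. Timp2 was at 1690 ± 98.7 and 1818 ± 235 CPM (SD, n = 3 and 5). A2m, whose product traps active proteases and which is named here after its values were seen, gave 0, 3 and 0 counts in Controls and 47, 0, 7, 14 and 109 in caIKK2EC, with an edgeR adjusted p of 0.191.

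The RefSeq promoter table (GRCm38.p6, 300 bases around each gene's start) held 5 of the 10 genes: Adamts1, Adamts2, Adamts9, Adamts12 and Adamts17. Searched on both strands, 0 of the 5 held the NF-κB consensus, found in 4.51% of 32851 promoters, or the AP-1 motif TGANTCA, found in 7.81%. Likewise 0 of 5 held the CArG box (1.63%) or the Runx motif TGTGGT (16.8%). The promoters were rich in G and C, from 55.7% in Adamts17 to 77.3% in Adamts2. The 3 genes whose groups did not overlap, Adamts4, Adamts7 and Adamts8, were not among the 5.

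Across the alternative fits by edgeR and DESeq2, Adamts4 stayed between 0.81 and 1.45 on the log2 scale, Adamts8 between -1.53 and -0.69, and Adamts7 between 0.36 and 0.61. For Adamts1, Adamts2, Adamts5, Adamts9 and Adamts15 the sign of the edgeR fold change depended on the fit.

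**Figure D5:**
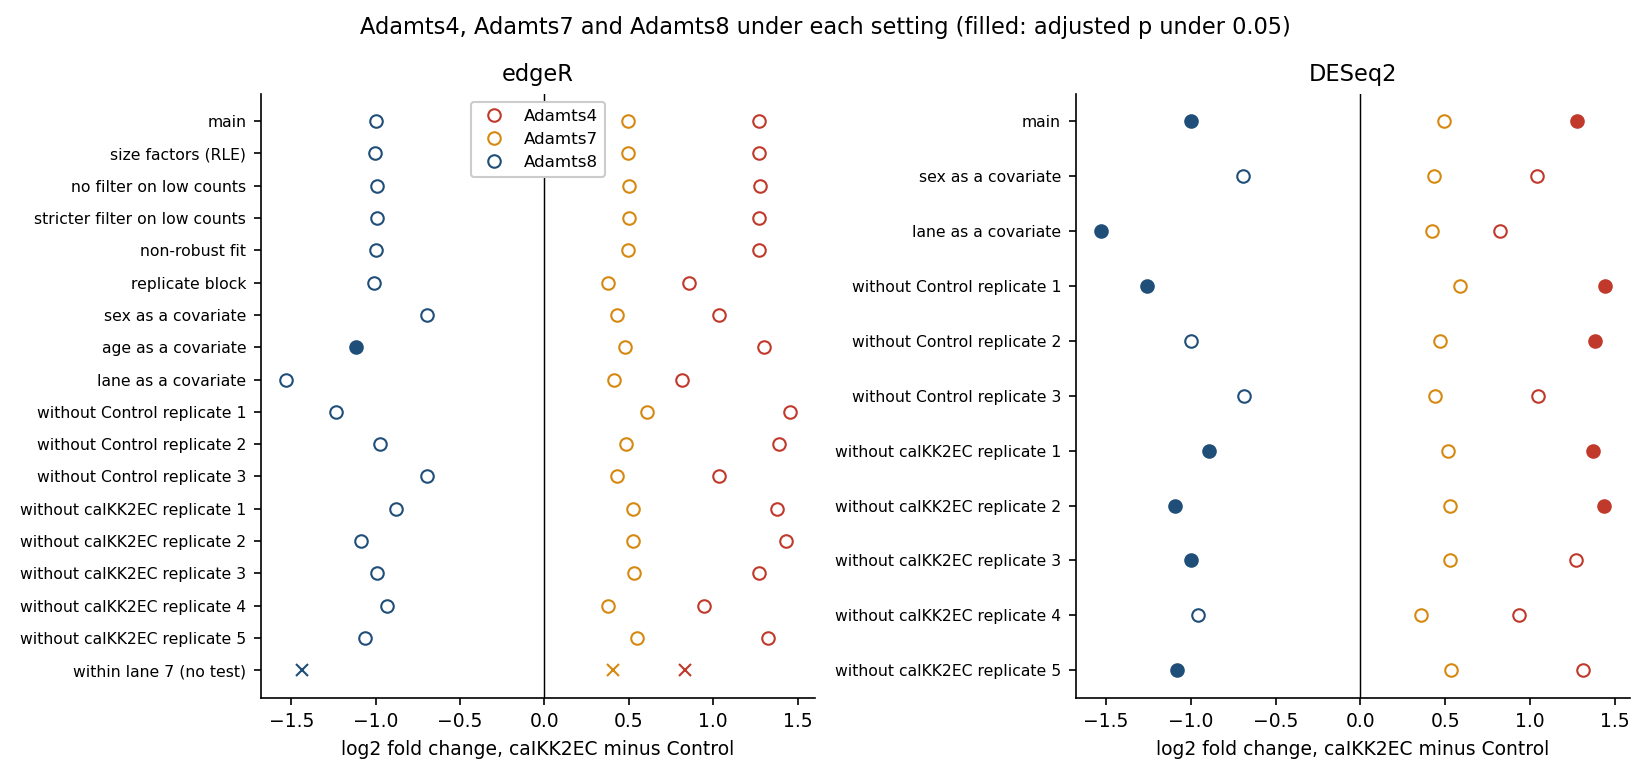
Log2 fold change of caIKK2EC over Control for Adamts4 (red), Adamts7 (orange) and Adamts8 (blue) under each setting of edgeR (left) and DESeq2 (right); filled points passed an adjusted p of 0.05, and crosses are the untested difference within lane 7. The points of Adamts4 (0.81 to 1.45) and Adamts7 (0.36 to 0.61) stay above 0 and those of Adamts8 (-1.53 to -0.69) below it. By edgeR only Adamts8 with age as a covariate is filled. By DESeq2 the filled points depend on sex or lane in the model and on the library left out.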

How the data were processed

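Poly(A) RNA of 8 whole aortas was sequenced from a directional library as 50-base single reads, per the labels' protocols. FastQC 0.11.5, STAR 2.7.0e, DESeq2 1.22.2 and the build mm10/GRCm38 are named in the submitters' processing notes. For the counting program, its annotation and whether it used strand, nothing is stated in the labels or notes used here. The authors deposited raw gene counts (24411 rows) and a table of log2 fold changes and p-values, which served only as a check of the DESeq2 calls.

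Counts were tested with edgeR 4.0.16 (R 4.3.3): TMM scaling, filterByExpr (14679 genes, all 10 members kept), robust quasi-likelihood fit, Benjamini-Hochberg adjustment over all genes. DESeq2 1.42.0 on genes with a total of at least 10 was the alternative. Single genes were also tested by exact two-sided permutation of log2(CPM + 0.5). Levels per kilobase used merged exons of GENCODE M21. No 2 libraries were alike within counting noise (lowest chi-square per degree of freedom 16.92). Because the labels do not state how the mice were sampled, p-values set the group difference only against the spread between these libraries. A total of 27 rows had date-like names in place of symbols. The 10 genes and all gene lists were chosen with earlier results of these data known. Named genes of the other lists are those past an adjusted p of 0.05 by either tool, otherwise the 2 with the highest mean CPM; exceptions are stated. The fits were tested on simulated data. Alternatives covered scaling, filter, tool, sex, age, lane, replicate number, pseudocount and each library left out. One result on a gene that overlaps a member is not reported here.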

Additional observations from a re-analysis of the deposited data

Results flagged for a closer look

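The level of Adamts7 in caIKK2EC 4, 26.27 CPM, was far from the other 4 caIKK2EC libraries, which lay between 17.24 and 18.30 CPM. The gap to the nearest was 0.883 of the group's range, above the 95% limit of 0.71 for 5 samples. Of 22 genes examined in this way 1 was picked out, and chance alone picks out about 1 in 20 such groups. caIKK2EC 4 was also the highest caIKK2EC library for Adamts4 and Adamts9, with a gap of 0.638 of the range in each, under the limit.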

How the results depend on the processing

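edgeR called 0 genes in the analysis reported and 661 with age as a covariate, 0 to 359 without each library in turn (359 without caIKK2EC 2), and DESeq2 called 869. Members called were 0, then 1 with age (Adamts8, log2 fold change -1.11, edgeR adjusted p = 0.0261), 0 without each library, and 2 with DESeq2. For DESeq2 the 869 became 354 with sex, 255 with lane and 385 to 1782 without each library, and the 2 members became 0 with sex, 1 with lane and 0 to 2 without each library (0 without Control 3 or caIKK2EC 4). These DESeq2 refits were chosen after seeing the data. Counts of members whose groups did not overlap were 3 with TMM, 2 with DESeq2 size factors and 3 with total counts. Signs turned with sex for Adamts1 (0.195), Adamts5 (0.043) and Adamts15 (0.127), with lane for Adamts2 (-0.32) and Adamts9 (-0.091), within lane 7 for Adamts2 (-0.286) and Adamts9 (-0.039), and with age for Adamts2 (-0.002). Without each library the log2 fold change ran from -0.186 to 0.196 for Adamts1, -0.112 to 0.093 for Adamts5, -0.148 to 0.341 for Adamts9, -0.413 to 0.127 for Adamts15, -0.01 to 0.355 for Adamts2, 0.343 to 0.923 for Adamts12 and -1.069 to -0.323 for Adamts17. The cause was not tested. With the replicate number as a block edgeR called 0 genes, with log2 fold changes of 0.86 for Adamts4, -1.01 for Adamts8 and 0.37 for Adamts7, and -0.109 for Adamts9, which turned sign. Same-numbered libraries correlated in their deviations by 0.382, 0.082 and 0.112, each best with its own number, a hint from the data and not the design, so the numbers were not taken as pairs. The stricter filter left Adamts17, at 6 to 20 counts, untested. The sex term rests on Control 3, the only male, and the lane term on caIKK2EC 1, the only caIKK2EC library in lane 7.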
